A study of Mus musculus with 4 samples.

Results

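Chromatin accessibility at interferon response genes was compared between bone mesenchymal stem cells (MSCs) of old and of young mice. The genes were a list of 44, from the interferon ligand and its receptors to the antiviral and antigen-presenting genes that interferon switches on. Their peaks were all peaks of the ATAC-seq table (mm10) that overlapped the gene or the 5 kb upstream of its start in GENCODE vM21 (GRCm38, the assembly that mm10 names). This gave 100 of the 117282 peaks of the table, and 41 of the 44 genes had at least 1. No peak was found at Oas1a, Oas2 or Oasl2. The rule used no measured value of the comparison.

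ATAC-seq measures how often the transposase Tn5 cuts a stretch of DNA, which it does where DNA is not wrapped in nucleosomes. There were 4 samples, 2 of MSCs from mice of 18 to 22 months of age (old) and 2 from mice of 3 to 5 months (young). The labels give the cells as mesenchymal stem cells and the oxygen level as 2% in both groups, and neither group received a drug or carried an altered gene. By the study's methods, such cells grow out of crushed hind-limb bones of C57BL/6N mice in culture, are sorted as CD45-, TER-119-, CD140a+ and Sca-1+, and are cultured again, so the measurements describe cells selected by that gate and grown in a dish. The labels do not say whether a sample was 1 mouse or a pool, so the tests below measure the spread between these samples. All 11 MSC markers examined, among them Pdgfra (CD140a) and Ly6a (Sca-1), had a peak at the start site. Of 15 blood and macrophage markers 8 had one, as did 3 of 4 erythroid and 3 of 4 endothelial markers. The 8 were Spi1, Csf1r, Cd14, Cd68, Lyz2, Coro1a, Laptm5 and Fcer1g. Blood markers without a start-site peak included Ptprc (CD45) and Itgam, which had 3 peaks each elsewhere, and Cd3e, which had no peak.

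Interferons are secreted proteins that cells release on meeting a virus. They bind paired receptor chains, which activate kinases and the STAT transcription factors, and complexes of STAT proteins, some with IRF9, then bind short DNA elements near the start sites of their many target genes. The products of those genes sense viral RNA, block viral replication, tag proteins with ISG15 and load peptides onto MHC molecules. In MSCs, interferon-stimulated genes are known to be partly expressed even without infection, and interferon gamma is known to change how MSCs act on immune cells.

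The start sites of some of these genes were marked by sequence as well as by peaks. Of the 44 genes, 39 matched the RefSeq table of start-site windows (GRCm38.p6), which run from 250 bases before to 50 bases after the start. The core of the interferon-stimulated response element, the site of STAT and IRF complexes, was searched as GAAA, any 2 bases and GAAA on both strands. It was found in the windows of 17 of the 39 genes (43.6%), against 3.99% of all 27025 gene symbols in the table. Those symbols outnumber the 21951 protein-coding genes of GENCODE vM21, and what kinds of gene they hold was not examined. The gamma-activated site of STAT dimers (TTCNNNGAA, the same on both strands) was found at 13 of the 39 genes (33.3%), against 9.55% of all symbols, and 5 genes had both. The 2 motifs can overlap in a GAA. A match is a run of letters and does not show that a factor binds there. By role, the core was present at 9 of the 15 antiviral effectors with a window and both RNA sensors with a window. It was also present at 3 of 6 antigen presentation and guanylate-binding genes, 2 of 8 transcription factors and 1 of 3 genes of the ISG15 system and regulators. It was matched at none of the 4 receptors and not at Ifnb1.

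Of the 17 genes with a core, 16 had it inside a peak of these MSCs. The exception was Oas1a, which makes the oligoadenylates that activate RNase L. Of the 25 matches, 20 began before the start site, with the first base of the match at a median of -72 from the start. The stretches below are the 160 bases before the start, 5′ to 3′ on the strand of the gene, for 9 genes with such a match, and the capitals mark the response element core on either strand. They are shown because they put the element beside the accessibility of each gene. Isg15 held 3 overlapping cores in 1 run, Bst2 and Oas1a 2 overlapping cores, and Ifit1 and Ifit3 2 separate ones.
Isg15, chr4:156200819-156200978, minus strand: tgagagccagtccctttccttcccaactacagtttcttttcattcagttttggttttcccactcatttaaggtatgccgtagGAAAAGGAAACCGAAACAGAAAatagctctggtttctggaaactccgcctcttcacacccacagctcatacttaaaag
Bst2, chr8:71537473-71537632, minus strand: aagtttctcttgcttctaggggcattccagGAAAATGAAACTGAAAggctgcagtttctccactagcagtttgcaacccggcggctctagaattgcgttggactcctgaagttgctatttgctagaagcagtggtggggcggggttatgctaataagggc
Oas3, chr5:120777660-120777819, minus strand: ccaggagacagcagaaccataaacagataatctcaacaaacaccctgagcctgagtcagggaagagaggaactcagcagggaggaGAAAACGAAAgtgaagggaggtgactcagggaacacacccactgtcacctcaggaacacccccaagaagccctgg
Oas1a, chr5:120907526-120907685, minus strand: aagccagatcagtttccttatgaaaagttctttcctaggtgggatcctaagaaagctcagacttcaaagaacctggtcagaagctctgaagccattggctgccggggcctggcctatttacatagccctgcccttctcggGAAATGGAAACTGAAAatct
Ifit1, chr19:34640729-34640888, plus strand: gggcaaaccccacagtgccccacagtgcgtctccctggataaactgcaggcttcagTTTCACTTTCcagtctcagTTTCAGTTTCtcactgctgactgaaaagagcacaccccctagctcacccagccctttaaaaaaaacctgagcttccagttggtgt
Ifit3, chr19:34583369-34583528, plus strand: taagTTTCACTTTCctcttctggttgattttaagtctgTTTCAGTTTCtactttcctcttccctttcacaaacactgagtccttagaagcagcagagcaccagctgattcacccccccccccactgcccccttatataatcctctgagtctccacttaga
Rsad2, chr12:26456453-26456612, minus strand: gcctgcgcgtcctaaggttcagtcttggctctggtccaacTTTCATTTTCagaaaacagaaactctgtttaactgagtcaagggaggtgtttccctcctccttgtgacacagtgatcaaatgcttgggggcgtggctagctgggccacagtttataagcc
Gbp2, chr3:142620503-142620662, plus strand: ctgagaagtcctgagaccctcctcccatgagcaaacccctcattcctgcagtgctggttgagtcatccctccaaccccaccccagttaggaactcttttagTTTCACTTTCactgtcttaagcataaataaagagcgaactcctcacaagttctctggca
B2m, chr2:122147527-122147686, plus strand: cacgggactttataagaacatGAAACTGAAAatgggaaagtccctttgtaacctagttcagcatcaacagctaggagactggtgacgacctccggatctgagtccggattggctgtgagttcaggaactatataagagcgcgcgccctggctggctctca

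The Oas1a stretch, with 2 overlapping cores close to the start, lay in no peak, whereas the single core of Oas3, another oligoadenylate synthetase, lay in a peak of 3400 bp. The part of read mapping among the Oas paralogs in this difference was not tested. The RefSeq windows of 36 of the 39 genes (92.3%) overlapped a peak, against 55.2% of all symbols in the table, the larger set named above. In GENCODE terms, 41 of the 44 genes (93.2%) had a peak within 1 kb of the start of one of their own protein-coding transcripts, against 69.9% of the 21951 protein-coding genes.

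The 100 peaks were of many kinds. At start sites lay 41 of them (within 1 kb of a start, as above), 25 in introns, 16 over a coding exon, 5 over a 3′ UTR, 3 over another exon and 10 upstream of the gene. Irf2 had the most, with 12 peaks over its 107727 bp, and 15 genes had 1 peak. Psmb9 and Tap1, which start on opposite strands, shared 1 peak of 2200 bp, and the start-site peak of Psmb8 also covered a coding exon of Tap1. The strongest start-site peaks of 6 genes held the start of another protein-coding gene as well. Outside start sites, the upstream peak of Bst2 held the start of Mvb12a, and the 3′ UTR peak of Ifnar2 held that of Il10rb. Their mean values were 112 and 92.9, above the 77.8 and 81.5 of the start-site peaks of Bst2 and Ifnar2. Wide peaks cannot be split between genes: that of Ifitm2 spanned 17800 bp and held the starts of Gm45717, Ifitm5 and Pgghg, that of Irf3 spanned 11200 bp and held the start of Bcl2l12, and that of Isg15 held the start of AW011738. Members of the Ifit, Oas, Gbp and Ifitm families lie beside close paralogs. By the study's methods, written for the oxygen comparison, peak calling set a minimum mapping quality for reads. Its effect on reads that fit several copies was not tested.

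Levels at the start sites differed widely between genes. They are given as the deposited value, which is counts scaled to a library total of 10000000, per kb of peak, as the mean of the 4 samples. Over the 41 genes the strongest start-site peak ranged from 7.95 to 68.9 per kb, an 8.66-fold span, and 20 of the 41 lay above the median of all 16206 start-site peaks. The start sites of the receptors had the highest median by this measure, 49.9 per kb, followed by antigen presentation and guanylate-binding genes at 41.1 per kb. Transcription factors had a median of 26.0, RNA sensors 24.5, the ISG15 system and regulators 22.6, and antiviral effectors 18.1 per kb. The single ligand gene, Ifnb1, stood at 10.4 per kb. These peaks were 200 to 17800 bp wide, and a value per kb depends on where the edges were called. The peak shared by Psmb9 and Tap1 counts for both genes.

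**Figure D1:**
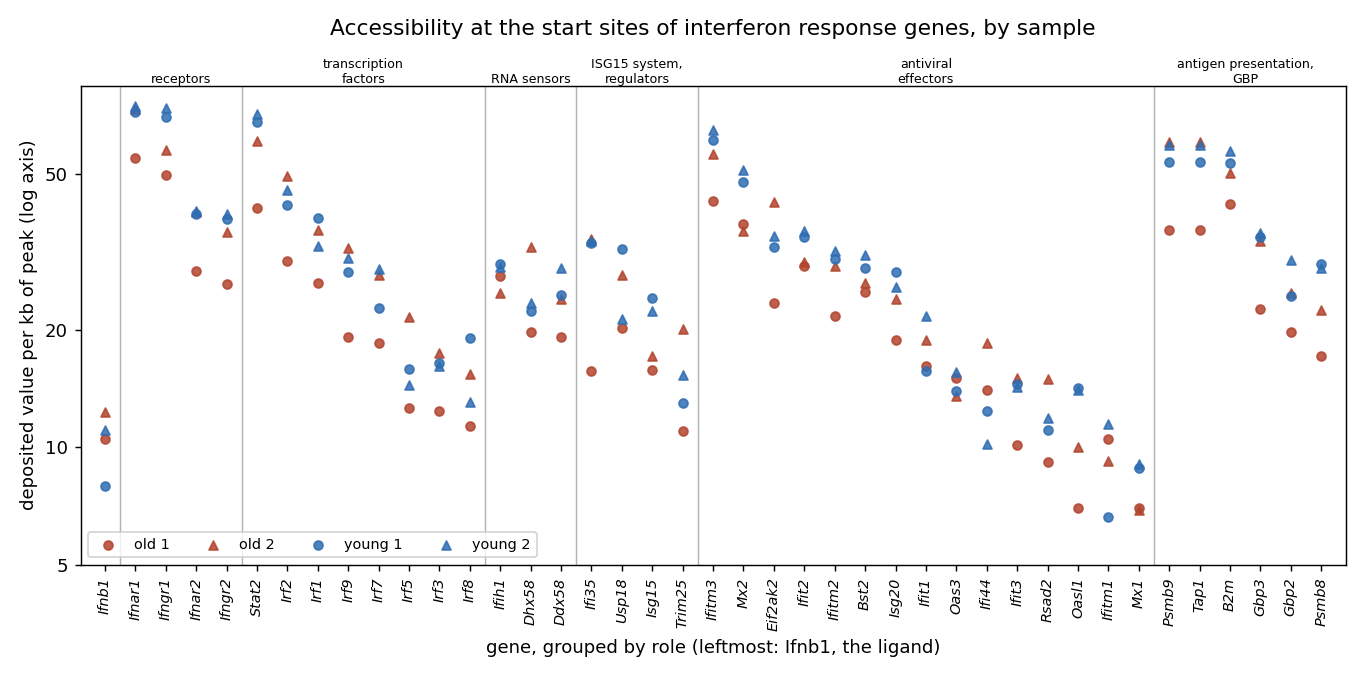
Deposited value per kb of the strongest start-site peak (log axis) for 41 interferon response genes, grouped by role, with 1 point per sample (red, old; blue, young; circles, replicate 1; triangles, replicate 2). Ifnar1, Ifngr1 and Stat2 stand highest and Mx1 lowest, and the spread between genes is wider than the spread between the 4 samples of a gene.

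With age, no member passed the test. In limma with Benjamini-Hochberg adjustment over all peaks, 0 of the 100 peaks had an adjusted p under 0.01, lower or higher in old MSCs, while 0.0307% of all peaks were called lower and 0.0256% higher. The lowest adjusted p among the members was 0.0709, at an intronic peak of Usp18. At an unadjusted p under 0.05, 3 of the 100 were lower in old MSCs (8.87% of all peaks) and 8 were higher (7.49% of all peaks), together 11 of 100, against 16.4% of all peaks in both directions. A limma-voom fit on the recovered counts also gave 0 at an adjusted p under 0.01. The call depended on 1 library. Without old replicate 1, 4 member peaks passed, namely the Ifih1 peak over the 3′ UTR (log2 fold change -0.90, adjusted p = 0.000253) and the start-site peaks of Dhx58 (0.63, adjusted p = 0.000681), Trim25 (0.63, adjusted p = 0.00257) and Irf5 (0.64, adjusted p = 0.00626), but in that fit 8.83% of all peaks passed. Summed per gene, 0 of the 41 genes passed in either direction (0% of 17309 genes were called lower and 0.0116% higher), and at an unadjusted p under 0.05, 0 genes were lower (4.74% of all genes) and 1 was higher (3.58% of all genes). That gene was Dhx58, with a log2 fold change of 0.47 and an adjusted p of 0.580.

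The median log2 fold change of old minus young was 0.067 over the 100 peaks and 0.0011 over all peaks, on the scale of log2(value + 1) after RLE scaling. Over the 41 start-site peaks it was 0.039, against -0.028 over all start-site peaks. Of the 100 peaks, 39 had a lower mean in old (39.0%), against 49.9% of all peaks. RLE scaling, which divides each sample by the median ratio to the 4-sample mean, decides the sign here. On the values as deposited, the median over all peaks moved to -0.27, and that of the members to -0.21, with 72.0% of member peaks lower in old against 74.6% of all peaks. On either scale the members thus lay slightly above the median of all peaks, by less than 0.1 on the log2 scale. Taken 1 old against 1 young sample at a time, the member median ran from 0.024 to 0.090.

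The sum over the 100 peaks was 4139 and 5459 in the old samples and 5582 and 5847 in the young samples as deposited. The old sums were the lower ones, with a ratio of old to young means of 0.840 (exact permutation test over samples, two-sided p = 0.33, which 2 against 2 samples cannot go below). After RLE scaling the sums were 5094 and 5420 in old and 5233 and 5104 in young, which overlapped, with a ratio of 1.02 (exact permutation p = 1). The old replicate 1 library had the smallest RLE factor, 0.813, against 1.01 to 1.15 in the other 3. The mitochondrial chromosome took 6.52% of the summed value in old replicate 2 and 13.5% to 15.7% in the others, and the part of either in the results was not tested. The libraries held between 28259470 and 32559794 counts, so 3 counts were worth a deposited value of 0.921 to 1.06, and 98 of the 100 member peaks were above 3 counts in all 4 samples.

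**Figure D2:**
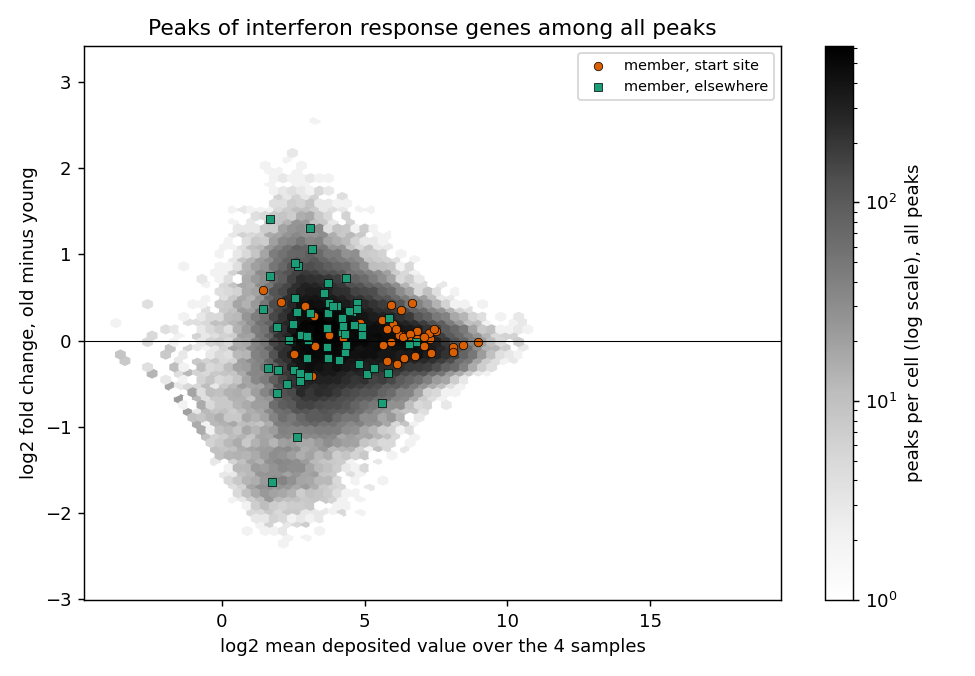
Log2 fold change of old minus young against the log2 mean deposited value for all peaks with a value above 0 (grey cells, darker for more peaks), with the member peaks at start sites (orange circles) and elsewhere (green squares). The members lie within the cloud of all peaks, and those at start sites lie between -0.42 and 0.58.

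The precision of these comparisons depended on the strength of a peak. For 37 of the 41 start-site peaks (90.2%), the 95% interval of the fold change lay within 1 log2 unit of 0, so a 2-fold difference in either direction was outside it. For the 59 members away from start sites this held for 33 (55.9%). Over all peaks away from every protein-coding start it held for 57.4%. The sets are unlike, since the 59 lie away from member starts only and include peaks over the starts of Mvb12a and Il10rb. For gene sums it held for 39 of 41. After RLE scaling, the old values were both under the young ones at 19 member peaks (24.2% of all peaks) and both over them at 27 (23.2% of all peaks). As deposited, they were both under at 40 member peaks (43.5% of all peaks) and both over at 8 (7.56% of all peaks).

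The ligand and receptors came first in the pathway. Ifnb1 encodes interferon beta, which fibroblast-like cells make early in infection. It had 1 peak of 400 bp upstream of its start, with values of 4.20 and 4.91 in the old samples and 3.18 and 4.42 in the young samples. These overlapped as deposited but not after RLE scaling, and the log2 fold change was 0.45 (95% interval -0.37 to 1.28). Ifnar1 and Ifnar2 encode the receptor chains for interferon alpha and beta. The start-site peak of Ifnar1, the densest of all members, had values of 121 and 162 in old and 159 and 164 in young, and that of Ifnar2 62.2 and 87.8 in old and 87.1 and 88.7 in young. In both genes replicate 1 of old stood lowest and the other 3 samples lay together. Their log2 fold changes were 0.08 (-0.24 to 0.40) and 0.04 (-0.34 to 0.42).

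Ifngr1 and Ifngr2 encode the receptor for interferon gamma, the cytokine of activated lymphocytes. The Ifngr1 start-site peak had 219 and 254 in old and 308 and 325 in young. Both old samples were lower, as deposited and after scaling, and the log2 fold change was -0.14 (-0.41 to 0.14). At Ifngr2 the start-site peak had a log2 fold change of -0.06 (-0.39 to 0.27), and peaks within the gene went both ways. A peak over a coding exon, 14328 bp from the start (chr16:91561001-91561800), had 6.29 and 9.52 in old and 4.95 and 4.42 in young, with a log2 fold change of 0.87 ± 0.35 (SE, n = 2 per group; adjusted p = 0.231). Another of its exonic peaks, of 1900 bp, was lower in both old samples, with a log2 fold change of -0.37. Over the 12 receptor peaks, with the peak at the start of Il10rb among them, 5 had a higher and 7 a lower mean in old.

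Among roles with more than 1 peak, the transcription factors had the largest share with a higher mean in old after RLE scaling. That share fell on the values as deposited, as it did over all peaks. Of all peaks, 49.9% were lower in old after RLE scaling and 74.6% as deposited. Of the 24 transcription factor peaks, 20 had a positive log2 fold change, with a median of 0.16. In the limma fit, 1 of the 24 was past an unadjusted p of 0.05, where 16.4% of all peaks were. On the values as deposited 9 of the 24 were positive, and 20 of the 24 lay above the median of all peaks on that scale. Scaling to equal sums gave 20 and quantile normalization 19. The 24 are not separate genes, since Irf2, a factor known to occupy the response element and to oppose Irf1, had 12 of them, 9 higher after RLE scaling and 5 as deposited. Its start-site peak had 132 and 217 in old and 183 and 201 in young, with a log2 fold change of 0.11 (-0.23 to 0.44).

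Stat2, the partner of IRF9 in the complex that answers interferon alpha and beta, went the other way. Its start-site peak had 73.8 and 110 in old and 122 and 128 in young, so both old samples were lower, and the log2 fold change was -0.18 (-0.54 to 0.17). Irf9, the DNA-binding member of that complex, had 0.06 (-0.35 to 0.47). Irf1, the factor induced by interferon gamma, had 0.08 (-0.30 to 0.46). Irf3 and Irf7, which viral sensors activate to switch on Ifnb1, had 0.14 (-0.18 to 0.46) and 0.11 (-0.25 to 0.48).

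Irf5 and Irf8 are factors best known from macrophages and dendritic cells. The Irf5 start-site peak had 47.9 and 82.0 in old and 60.2 and 54.7 in young, with overlap as deposited and none after RLE scaling, and a log2 fold change of 0.41 (-0.03 to 0.85). The start site of Irf8 had 0.02 (-0.55 to 0.60). A peak over a coding exon of Irf8, 7642 bp from its start (chr8:120743501-120744500), had 10.1 and 13.5 in old and 6.72 and 5.78 in young. The old values were the higher, with a log2 fold change of 1.07 ± 0.32 (SE, n = 2 per group; adjusted p = 0.0999). RLE-scaled values at the start sites of the 8 accessible blood and macrophage markers were summed. The sums were 581 and 800 in old and 723 and 665 in young, which overlapped. At Ptprc no start-site peak was present, but 3 peaks lay elsewhere. The part of such cells in the Irf8 value was not tested.

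The RNA sensors held the peaks that departed most from 0 in both directions, both weak and 300 bp wide. Ifih1 encodes MDA5, which detects long double-stranded RNA. At its start site the values were 54.9 and 49.8 in old and 58.7 and 57.8 in young. They were lower in both old samples as deposited but overlapped after RLE scaling, with a log2 fold change of 0.13 (-0.31 to 0.57). Near the far end of the gene, 2 adjoining peaks were lower in both old samples on either scale. The first, of 1500 bp over the 3′ UTR (chr2:62596401-62597900), had 32.2 and 31.6 in old and 60.2 and 71.1 in young, with a log2 fold change of -0.73 ± 0.21 (SE, n = 2 per group; adjusted p = 0.0916). The old values were close together and well below the young ones. The nearest start of another protein-coding gene was that of Fap, 22326 bp away.

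The second, of 300 bp over coding exons (chr2:62597901-62598200), had 0.699 and 0.921 in old and 3.18 and 8.84 in young. These were 2 and 3 counts in the old samples and 9 and 26 in the young samples, so the old values were at the floor of 3 counts. From the pooled counts the ratio of old to young was 0.135, with an exact 95% interval of 0.0412 to 0.345 that covers counting error only, and the adjusted p was 0.0931. The log2 fold change was -1.06 without young replicate 2 and -2.20 without young replicate 1. The edge between the peaks was set by the study's peak calling on these same samples. With counts this low in old, the peak may be in the table only through the young samples, which would set the direction of its ratio. The ratio and its interval are therefore description only. No response element core or gamma-activated site lay in these 300 bases, against 4.62% and 9.70% of the 2403 peaks of that length on the chromosomes that hold members. Over all 7 Ifih1 peaks, the gene sum had a log2 fold change of -0.24 (-0.57 to 0.09).

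**Figure D3:**
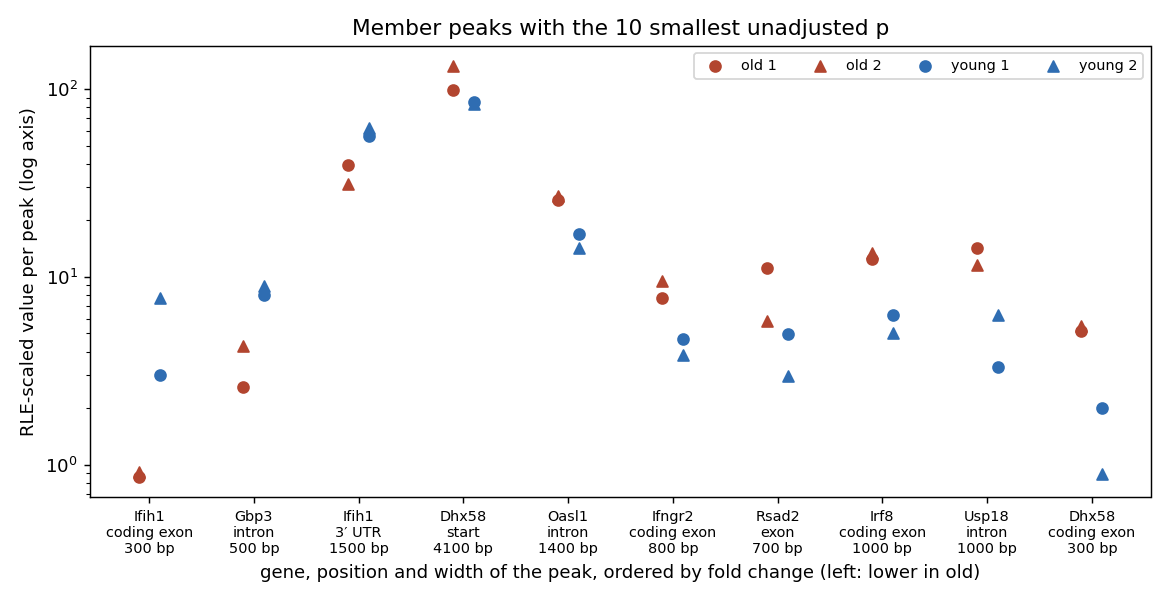
RLE-scaled value (log axis) of the 10 member peaks with the smallest unadjusted p in each sample, ordered by fold change, with old samples in red and young samples in blue (circles, replicate 1; triangles, replicate 2). The 2 old points lie on 1 side of the 2 young points at each peak, 3 peaks are lower in old, 7 are higher, and none passed an adjusted p of 0.01.

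Dhx58 encodes LGP2, a regulator of the other RNA sensors. Its start-site peak (chr11:100701001-100705100) had 80.8 and 133 in old and 91.7 and 95.9 in young. As deposited the groups overlapped, since replicate 1 of old stood lowest and replicate 2 highest, and after RLE scaling both old samples were higher. The log2 fold change was 0.43 ± 0.18 (SE, n = 2 per group; adjusted p = 0.246), the only start-site peak of the members past an unadjusted p of 0.05. Without old replicate 1 it was 0.63 and without old replicate 2 it was 0.24. A weak peak over a coding exon of the gene (chr11:100695001-100695300) had 4.20 and 5.53 in old and 2.12 and 1.02 in young, both old samples being higher. With 30 counts in old and 9 in young, the ratio was 3.14 (exact 95% interval 1.45 to 7.53, counting error only; adjusted p = 0.114), and the nearest start of another gene was Zfp385c at 2546 bp. This weak peak may be in the table only through the old samples, so its ratio is description only. Ddx58, which encodes RIG-I, the sensor of short viral RNA, had a start-site log2 fold change of -0.02 (-0.43 to 0.38), and an intronic peak of 600 bp had -0.47.

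ISG15 is a ubiquitin-like protein joined to other proteins in infected cells. The Isg15 start-site peak, which holds the 3 overlapping cores, had 66.1 and 71.9 in old and 101 and 93.8 in young. They were lower in both old samples on either scale, and the log2 fold change was -0.21 (-0.59 to 0.18), within the spread of the fit. Usp18 removes ISG15 and dampens the receptor Ifnar2. Its start site had 54.5 and 74.3 in old and 87.1 and 57.5 in young, with a log2 fold change of 0.14 (-0.33 to 0.60). An intronic peak 4894 bp into the gene (chr6:121250301-121251300) had 11.5 and 11.7 in old and 3.54 and 7.14 in young. Each old value exceeded each young one, the means after RLE scaling were 12.9 ± 1.85 and 4.77 ± 2.06 (SD, n = 2 per group), and the log2 fold change of 1.31 ± 0.35 (SE) was the highest among peaks with a mean value of at least 5 (adjusted p = 0.0709). Trim25, the ubiquitin ligase that acts on RIG-I, had a start-site log2 fold change of 0.36 (-0.07 to 0.79). Ifi35 had -0.24 (-0.74 to 0.26), with the old samples far apart at 29.7 and 64.8.

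The 18 antiviral effectors were the largest group, and 15 had a peak. Over their 36 peaks, 22 had a higher mean in old and 14 a lower one, with a median log2 fold change of 0.065. On the values as deposited 9 of the 36 were higher. None of the 36 passed an adjusted p of 0.01, and at an unadjusted p under 0.05 there were 3 of 36 higher in old, where 7.49% of all peaks were, and 0 lower, where 8.87% of all peaks were. The start sites of the group ran from 7.95 per kb at Mx1 to 56.2 per kb at Ifitm3.

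The Ifit genes encode proteins that bind viral RNA and lie side by side on chromosome 19. The Ifit1 start-site peak, with 2 cores, had 25.9 and 30.1 in old and 25.1 and 34.7 in young. The groups overlapped, and the log2 fold change was 0.20 (-0.30 to 0.70). That of Ifit2 was the strongest of the 3, with 122 and 125 in old and 145 and 151 in young, lower in both old samples as deposited but overlapping after RLE scaling (log2 fold change 0.04, -0.31 to 0.38). Ifit3 had 10.1 and 15.0 in old and 14.5 and 14.3 in young, with a log2 fold change of 0.06 (-0.53 to 0.66).

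Among the oligoadenylate synthetases, Oas3 and Oasl1 had peaks. The start-site peak of Oas3 had 51.0 and 46.1 in old and 47.4 and 53.0 in young, which overlapped (log2 fold change 0.24, -0.21 to 0.69), while a peak of 700 bp over a coding exon had -0.41. Oasl1, known to restrain the translation of Irf7, went in opposite directions at neighbouring peaks. Its start-site peak of 800 bp had 5.59 and 7.99 in old and 11.3 and 11.2 in young, lower in both old samples, with the lowest start-site log2 fold change of the members, -0.42 (-1.08 to 0.25). An intronic peak 3460 bp into the gene (chr5:114926001-114927400) had 21.0 and 27.0 in old and 18.0 and 16.3 in young, higher in both old samples, with a log2 fold change of 0.73 ± 0.25 (SE, n = 2 per group; adjusted p = 0.156).

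Rsad2 encodes viperin, which makes a nucleotide that stops viral RNA synthesis. Its start site was weakly open, with 7.34 and 12.0 in old and 8.85 and 9.52 in young, and the log2 fold change was 0.29 (-0.37 to 0.95). Within the gene, an exonic peak 1502 bp from the start (chr12:26454601-26455300) had 9.09 and 5.84 in old and 5.31 and 3.40 in young, with a log2 fold change of 0.90 ± 0.40 (SE, n = 2 per group; adjusted p = 0.265). Without old replicate 1 it was 0.48 and without old replicate 2 it was 1.33. A peak over its 3′ UTR (chr12:26444001-26444600) had 16.8 and 13.2 in old and 8.49 and 14.3 in young, which overlapped as deposited, and its log2 fold change was 0.67 (adjusted p = 0.300). All 5 peaks of Rsad2 had a higher mean in old after RLE scaling, and 4 of the 5 did so as deposited.

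The dynamin-like Mx genes differed in level. Mx1 had the lowest start-site level of all members and a log2 fold change of -0.07 (-0.72 to 0.59). Mx2, listed as a polymorphic pseudogene in the annotation, had 138 and 132 in old and 177 and 189 in young, lower in both old samples as deposited but overlapping after RLE scaling, at -0.15 (-0.49 to 0.19). The Ifitm proteins, which block viral entry, were led by Ifitm3, with 209 and 275 in old and 300 and 317 in young and a log2 fold change of -0.07 (-0.35 to 0.20). Ifitm1 had 0.40 (-0.34 to 1.14) and the wide Ifitm2 peak -0.02 (-0.26 to 0.22). Bst2 (tetherin), which holds virus particles at the cell surface, had 0.07 (-0.32 to 0.45), and Eif2ak2, the kinase PKR that stops translation, had 0.19 (-0.25 to 0.63). Isg20, an exonuclease, had -0.05 (-0.32 to 0.22). Ifi44 had only weak peaks, and its start-site log2 fold change of 0.58 had an interval of -0.33 to 1.49.

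**Figure D4:**
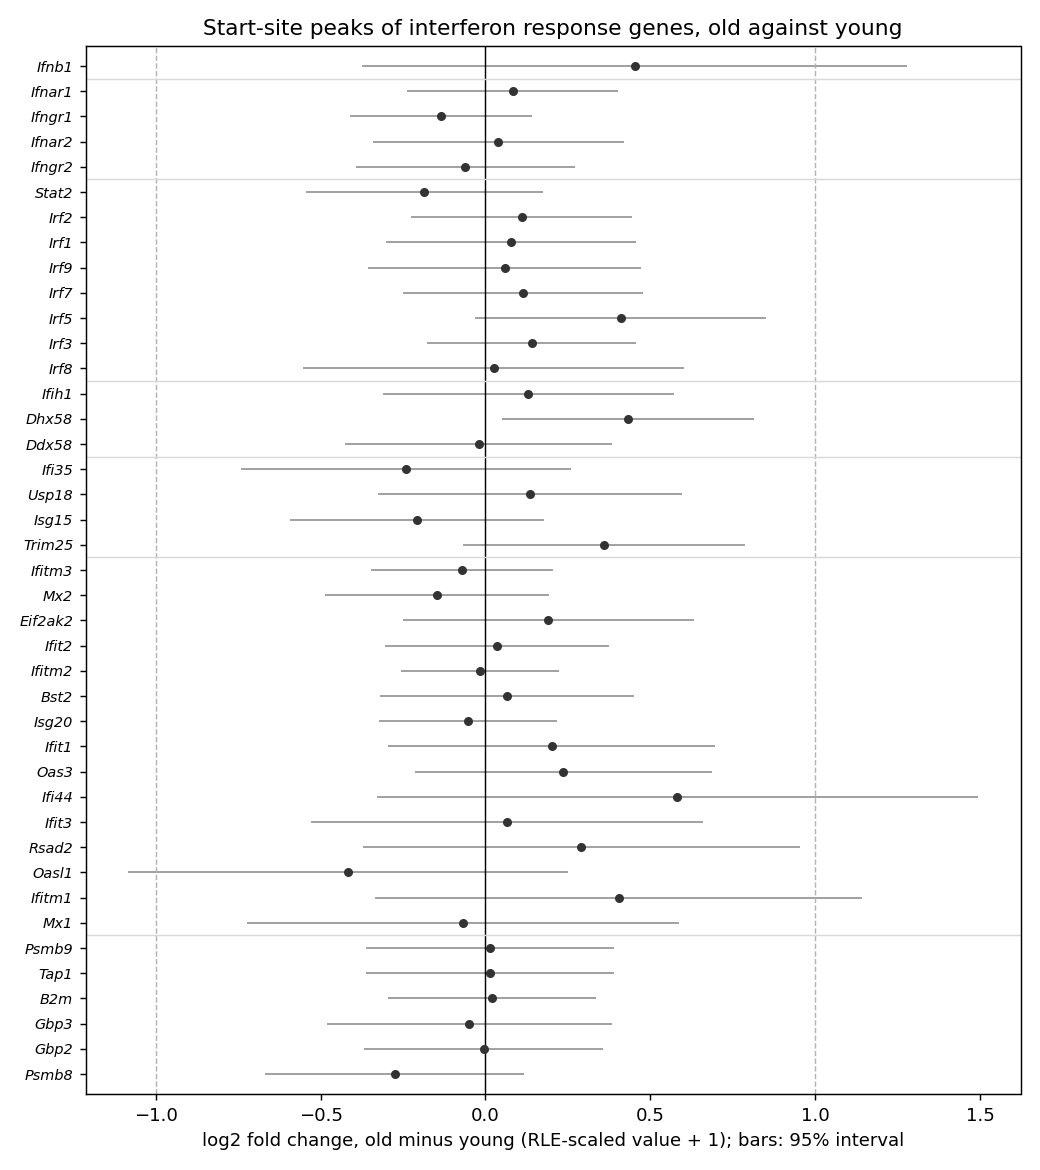
Log2 fold change of old minus young at the strongest start-site peak of each of 41 genes, in the order of the plot by sample, with 95% intervals from limma as bars and dashed lines at -1 and 1. The interval of Dhx58 is the only one that leaves out 0, and most intervals lie between the dashed lines.

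Genes of antigen presentation and the guanylate-binding proteins had 6 peaks, 4 with a lower mean in old and 2 with a higher one, and a median log2 fold change of -0.03. As deposited, none of the 6 was higher in old. B2m, the invariant chain of MHC class I, had 130 and 156 in old and 166 and 177 in young at its start site, lower in both old samples as deposited but not after RLE scaling (log2 fold change 0.02, -0.30 to 0.34). The peak shared by Psmb9, a subunit of the immunoproteasome, and Tap1, the peptide transporter, had 79.0 and 133 in old and 118 and 131 in young, with 0.01 (-0.36 to 0.39). Psmb8, another immunoproteasome subunit, had 49.6 and 65.1 in old and 85.3 and 83.3 in young. The old values were lower on either scale, at -0.27 (-0.67 to 0.12).

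Gbp2 and Gbp3 encode GTPases that attack vacuoles holding microbes. Their start sites, each with the response element core, had -0.01 (-0.37 to 0.36) and -0.05 (-0.48 to 0.38). An intronic peak of Gbp3, 9524 bp from the start (chr3:142569301-142569800), had 2.10 and 4.30 in old and 8.49 and 10.2 in young. Old was lower in each sample, and the log2 fold change of -1.12 ± 0.37 (SE, n = 2 per group; adjusted p = 0.141) was the lowest among members with a mean value of at least 5.

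The start-site peaks were also split by the response element core, with no test. The 16 with a core had a median log2 fold change of 0.042, from -0.21 to 0.29, and 9 of them were higher in old. The 21 with a window but without it had a median of 0.039, from -0.42 to 0.58, and 15 were higher. Their levels had medians of 27.7 and 24.4 per kb.

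A list of 62 further interferon pathway genes, among them kinases, suppressors of cytokine signalling, other guanylate-binding proteins and MHC genes, had 130 peaks outside those above, and 54 of the genes had a start-site peak. None of the 130 passed an adjusted p of 0.01. At an unadjusted p under 0.05, 5 were lower and 6 were higher in old (11 of 130, or 8.46%, against 16.4% of all peaks), and their median log2 fold change was -0.024.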

How the data were processed

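ATAC-seq of 2 old and 2 young MSC samples was analysed, grouped by the labels. The authors deposited 1 value per peak and sample, named RPKM. This deposited score had been made by the authors from counts per peak, since every value was a whole number of counts (within 0.01) times 10000000 divided by the library total, with no division by peak length. By the study's methods, written for the oxygen comparison, reads were mapped to mm10 with bowtie2, duplicates were removed with Picard and peaks were called with chromstaR. Columns with values of no sample in the labels: none.

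Values were divided by RLE factors, and log2(value + 1) was fitted with limma 3.58.1 in R 4.3.3 (lmFit, eBayes with trend and robust moderation). P-values were adjusted by the Benjamini-Hochberg method over all 117282 peaks, or over 17309 genes for sums over the peaks of a gene, with a threshold of 0.01. Python 3.11.15 was used for summaries. Peaks of the members lay within chromosomes of the GRCm38 genome. The fit was tested on simulated counts. Members and lists were chosen with earlier results of these data known. Peaks named with values were the strongest start-site peak of each gene, the 10 with the smallest unadjusted p, and the 5 highest and 5 lowest fold changes with a mean value of at least 5, while others were named after their values were seen. Same-numbered samples did not deviate together (correlation -0.0993), so samples were not paired. Results were recomputed with the values as deposited or scaled to equal sums, with a pseudocount of 0.1 or 5, without weak peaks, with other windows and thresholds, with a replicate block and without each sample. Another fit left out the trend and robust moderation. A crossed block, limma-voom and quantile normalization were added after seeing the data. Intervals from counts cover counting error only.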

Additional observations from a re-analysis of the deposited data

How the results depend on the processing

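The count of 0 member peaks at an adjusted p under 0.01 held under each alternative fit except 2. Few or no peaks of the whole table passed in several of these fits, so a count of 0 among 100 says little about the members. Of all peaks, 0.0563% passed in the limma fit above, 0.0188% with equal sums and 1.18% on values as deposited. Without trend and robust moderation 0% of all peaks passed. Without old replicate 1 the count was 1 lower (the Ifih1 3′ UTR peak) and 3 higher (the start-site peaks of Dhx58, Irf5 and Trim25), in a fit where 8.83% of all peaks passed, so the leave-one-out counts ranged from 0 to 1 lower and from 0 to 3 higher, and for gene sums of the same 4 genes from 0 to 1 and from 0 to 3. In those fits 1 group has a lone sample, which is assumed to vary like the others. The share of all gene sums that passed in them is not given, so the gene counts have no background to be read against. With replicate numbers crossed as a block, 1 member peak was higher (the intronic peak of Usp18), in a fit where 2.74% of all peaks passed. With the replicate number as a block the member counts stayed at 0 and 0, in a fit where 1.08% of all peaks passed. At an unadjusted p under 0.05 they stayed at 3 lower (8.13% of all peaks) and 8 higher (6.86% of all peaks). The block changed no call among the members.

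At an unadjusted p under 0.05, the counts lower and higher were 7 and 3 on values as deposited (18.5% and 1.70% of all peaks), 1 and 5 with weak peaks left out (8.51% and 7.37%), 0 and 1 for peaks within 1 kb of a start, 5 and 14 with 20 kb upstream, and 0 to 7 and 3 to 13 when each sample was left out (3.49% to 15.8% and 3.46% to 13.5% of all peaks). The 2 other windows were counted in the limma fit of all 4 samples, where 8.87% of all peaks were lower and 7.49% higher. The window of 1 kb held 41 member peaks. That of 20 kb held more than the 100, so its counts are not on the scale of the others. No tilt toward higher in old is read from them. The medians of the log2 fold change moved with the scaling. On values as deposited they were -0.21 over member peaks, -0.25 over start-site peaks and -0.27 over gene sums, with 72.0% of member peaks lower in old and a summed value of 0.840 times young. With equal sums they were 0.13, 0.11 and 0.089, with 30.0% lower, while the median over all peaks itself moved to 0.066. Leaving out each sample gave 0.029 to 0.13 for the median over member peaks and 40.0% to 47.0% lower. Of the 51 named peaks, 18 changed sign on values as deposited, 6 with equal sums and 3 to 10 when a sample was left out, but none of the 10 with the smallest p. The planned edgeR test on recovered counts was not run. At 2 samples a group, weak peaks limit precision.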
